A study of Mus musculus with 7 samples.

Results

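The genes described here are 9 whose proteins belong to the thin filament, the Z-disc, the elastic and intermediate filaments or the thick filament of the sarcomere: Acta1, Actc1, Neb, Ttn, Actn2, Actn3, Ldb3, Des and Mybpc2. They are a list of names, with no threshold on their values, among 56854 gene identifiers common to all libraries. The libraries came from whole shoulder joints, 1 joint and 1 library for each of 7 mice, with the tissue collected 2 weeks after the left supraspinatus tendon, part of the rotator cuff, had been repaired surgically. The groups were wild type (n = 3) and Tnc-/- (n = 4), which lacks tenascin C, a glycoprotein of the extracellular matrix. All 7 mice had the repair, so no value here compares repaired with unoperated tissue. Strain, age and the way the Tnc allele was made are not given in the sources used here.

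The sarcomere is the contractile unit of striated muscle. Thin filaments of actin are crosslinked at the Z-disc by alpha-actinin, nebulin lies along the thin filament, and titin spans from the Z-disc to the M-band and works as a molecular spring. Desmin, an intermediate filament protein, ties neighbouring Z-discs together and to the cell membrane, and myosin binding protein C sits on the thick filament. Acta1 encodes the alpha-actin of adult skeletal muscle, whereas Actc1 encodes that of the heart and of developing skeletal muscle.

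Every wild-type library came from one form of count table and every Tnc-/- library from another, so the counting and the genotype cannot be told apart. Gene counts per library ran from 13.5 to 18.5 M (M, mega) in wild type and from 19.3 to 28.2 M in Tnc-/-. Levels are in CPM, a gene's counts per M of library counts, with library sizes scaled by the trimmed mean of M-values (TMM). Tnc was at 292 to 437 CPM in wild type and 33.4 to 55.0 CPM in Tnc-/-. Wild-type libraries 2 and 3 stood apart: the summed level of 2026 smell and pheromone receptor genes was 1399 and 982 CPM there, against 89.1 CPM in wild-type library 1 and 36.5 to 43.9 CPM in Tnc-/-. Every wild-type library was thus above every Tnc-/- library. A fit with this level as a covariate therefore cannot separate it from genotype. The joint mixes muscle with tendon, bone, marrow and fat, and in such bulk tissue fewer cells of a type and less RNA per cell cannot be told apart.

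The 9 genes held 2.22, 1.73 and 1.92% of gene counts in wild-type libraries 1 to 3. In Tnc-/- libraries 1 to 4 they held 1.86, 2.80, 2.01 and 1.91%. The groups overlapped in this share. The 95% Wilson interval for the highest, Tnc-/- 2, ran from 2.79 to 2.81%, and it covers counting error only. Acta1 alone held 0.962% (Tnc-/- 1) to 1.47% (Tnc-/- 2) of gene counts.

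Of the 9 genes, 8 had counts enough to be tested and 1, Actc1, had none. Mybpc2 and Actn3 were higher in Tnc-/- at an adjusted p under 0.05 in edgeR's quasi-likelihood test, none was lower, and 6 did not pass. Over all 17791 genes tested, 10.3% were called higher and 18.7% lower. The 8 log2 fold changes were all above 0, with a median of 0.44, against a median of -9.0e-04 over all genes tested. These signs depended on the fit: 5 of the 8 were below 0 with the receptor-gene level as a covariate, 3 against wild-type library 1 alone, and Acta1 with library totals as the scaling. For Actn3, Ldb3 and Mybpc2 every Tnc-/- library was above every wild-type library, and for none was every one below. Over all genes tested, 17.7% stood apart in the first way and 17.4% in the second.

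**Figure D1:**
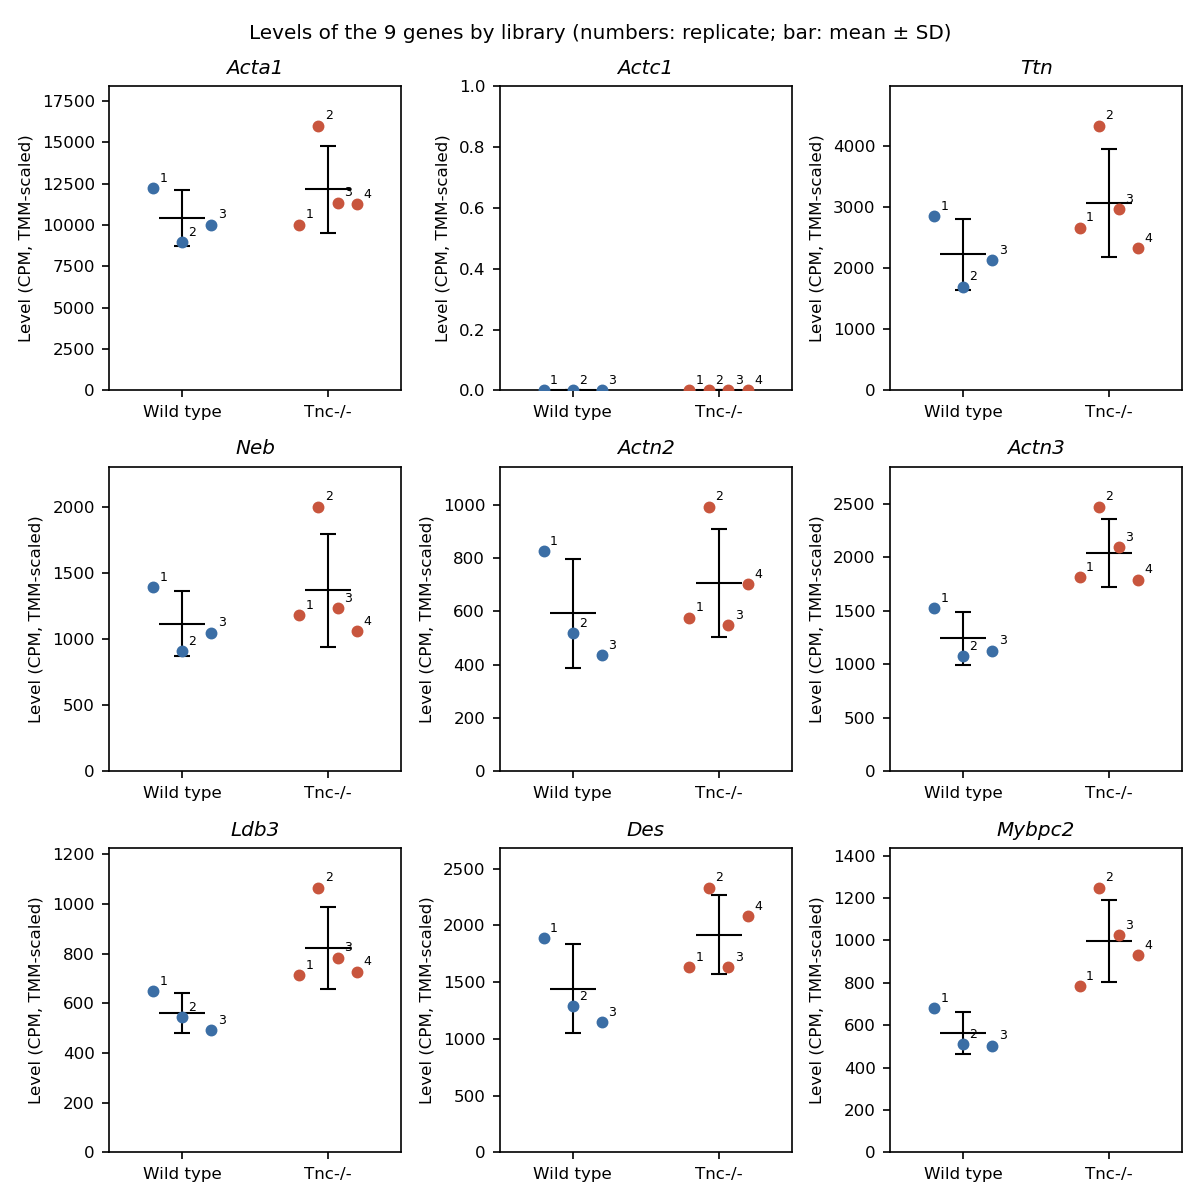
Level of each of the 9 genes in CPM (vertical axis, starting at 0) in wild type (blue, n = 3) and Tnc-/- (red, n = 4), with each library numbered by replicate and the bar giving mean ± SD. Tnc-/- 2 is the highest library for all 8 genes with counts, and only for Actn3, Ldb3 and Mybpc2 do all Tnc-/- points lie above all wild-type points; Actc1 is at 0 throughout.

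Among the actins, Acta1 (ENSMUSG00000031972, chromosome 8) was by far the most abundant of the 9 genes. Its level was 12248, 8953 and 10018 CPM in wild type and 10030, 16004, 11354 and 11281 CPM in Tnc-/-. The groups overlapped, since wild-type library 1 lay above every Tnc-/- library but Tnc-/- 2. By edgeR the log2 fold change was 0.23 ± 0.25 (SE; adjusted p = 0.522).

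Actc1 (ENSMUSG00000068614, chromosome 2) had 0 counts in all 7 libraries, while Acta1 had 134729 to 287279. A count of 0 allows up to 3 counts, which is 0.106 to 0.223 CPM at these depths before scaling. The longest open reading frames of both genes have 1134 bases and share 86.2% of them, but the longest identical run is 29 bases, so any longer read from the coding sequence differs between them in at least 1 base. In the GENCODE M21 annotation, which is not the authors' build, no other gene overlaps the exons of Actc1. The Tnc-/- tables set 11.4 to 11.6% of their listed reads aside as ambiguous, and whether Actc1 reads are among them was not tested. Among the sarcomere partner genes listed below, Xirp1 and Synm also had 0 counts in all 7 libraries, and Capn3 had 0 to 8. A level of cardiac alpha-actin therefore cannot be read from these tables, and no ratio of Actc1 to Acta1 was computed.

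The promoters of both actins are shown because they pair the most abundant of the 9 genes with one at 0, and that of Mybpc2 because it had the largest fold change of the 9. Sequences are RefSeq's on GRCm38.p6, 250 bases before to 50 after the annotated start, 5′ to 3′ on the minus strand of the genome. Capitals mark matches to the CArG box (the site of serum response factor), the MEF2 site, MCAT (CATTCC, read on either strand as CATTCC or GGAATG) and the TATA box (TATAAA, either strand). The promoter window of Acta1 is chr8:123894726-123895025, that of Actc1 chr2:114052826-114053125 and that of Mybpc2 chr7:44524620-44524919.
Acta1: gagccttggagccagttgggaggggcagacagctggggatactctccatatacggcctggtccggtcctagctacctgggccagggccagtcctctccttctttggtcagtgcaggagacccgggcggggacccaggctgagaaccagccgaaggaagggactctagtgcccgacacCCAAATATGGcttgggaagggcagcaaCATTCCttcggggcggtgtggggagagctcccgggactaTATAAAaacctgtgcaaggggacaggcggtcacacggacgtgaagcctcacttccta
Actc1: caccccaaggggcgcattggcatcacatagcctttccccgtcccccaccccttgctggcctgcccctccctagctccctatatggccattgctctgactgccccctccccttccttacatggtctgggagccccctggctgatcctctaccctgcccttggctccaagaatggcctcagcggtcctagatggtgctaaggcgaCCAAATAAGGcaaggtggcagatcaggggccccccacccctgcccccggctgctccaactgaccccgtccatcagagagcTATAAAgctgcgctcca
Mybpc2: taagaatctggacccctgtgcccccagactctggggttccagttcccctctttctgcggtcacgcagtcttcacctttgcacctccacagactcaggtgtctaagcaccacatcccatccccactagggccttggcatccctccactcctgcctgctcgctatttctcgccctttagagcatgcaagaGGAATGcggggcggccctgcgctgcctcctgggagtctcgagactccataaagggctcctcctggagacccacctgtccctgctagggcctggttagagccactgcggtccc

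The Acta1 window held the CArG box CCAAATATGG, 1 MCAT match and 1 TATA box. That of Actc1 held the CArG box CCAAATAAGG and 1 TATA box, and the 1 match in capitals in that of Mybpc2 is an MCAT match on the opposite strand. Counted from the annotated start, the TATAAA match began at -7 in Acta1 and at 33, past the start, in Actc1. Promoters were found for 7 of the 9 genes; Neb and Actn3 are named only. A CArG box was in 3 of the 7 (Acta1, Actc1 and Ldb3), against 1.63% of 32851 promoter windows of the same length. An MCAT match was in 3 (Ttn, Acta1 and Mybpc2) against 14.7% of windows, a TATA box in 2 against 13.6%, and a MEF2 site in 1, Ttn, against 3.19%. The E-box CANNTG, not marked above, was in 6 of the 7, all but Ldb3, and in 72.3% of all windows. A CArG box or MEF2 site can itself contain TATAAA, and any of the motifs can overlap. These matches are letters in a window; no binding was measured.

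The giant proteins did not pass the test. Ttn (ENSMUSG00000051747, chromosome 2), which encodes titin, was at 2850, 1701 and 2134 CPM in wild type and 2665, 4335, 2964 and 2329 CPM in Tnc-/-. The edgeR log2 fold change of Ttn was 0.46 ± 0.28 (SE; adjusted p = 0.235), and wild-type library 1 exceeded Tnc-/- 1 and 4. Neb (ENSMUSG00000026950, chromosome 2), which encodes nebulin, was at 1395, 913 and 1050 CPM in wild type and 1183, 2003, 1234 and 1061 CPM in Tnc-/-. Its groups overlapped as well, and edgeR gave 0.29 ± 0.27 (log2 fold change and SE; adjusted p = 0.438).

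Ttn and Neb are also the longest of the 9 genes, spanning 279 and 242 kb in GENCODE M21. Across all genes the share of lower calls was larger at longer spans: 37.1% of calls were lower in Tnc-/- among genes of at most 10 kb and 91.5% among those of 100 to 300 kb, where the median log2 fold change of tested genes was -0.69. Ttn and Neb, neither of them called, were above 0 in the fit of all 7 libraries but below it with the receptor-gene covariate (-0.058 and -0.16), and Neb also against wild-type library 1 alone (-0.030). The read density over receptor genes, multiplied by the exon length of Ttn (117 kb), came to 1.70, 26.8 and 18.8 CPM across the 3 wild-type libraries, in order of replicate. That is at most 1.58% of the level of Ttn in any library, and for Neb at most 0.668%. This product need not cover all background reads over a long gene. Nebl, which spans 388 kb with 15.2 kb of exon, was at 52.6 CPM in wild-type library 2. There the receptor density was 0.229 CPM per kb of exon. In wild-type library 1 Nebl was at 3.86 CPM and the density at 0.0145 CPM per kb. How much background Ttn and Neb hold was not tested.

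At the Z-disc, the alpha-actinin genes differed in outcome. Actn3 (ENSMUSG00000006457, chromosome 19), the alpha-actinin of fast fibres, was at 1525, 1073 and 1128 CPM in wild type. In Tnc-/- it was at 1815, 2471, 2096 and 1790 CPM, all above wild type. In edgeR this was 0.72 ± 0.21 on the log2 scale (SE), or 1.65-fold higher (adjusted p = 0.0341). Actn2 (ENSMUSG00000052374, chromosome 13), the alpha-actinin of heart and of all skeletal fibre types, was at 825, 517 and 437 CPM in wild type and 577, 993, 548 and 704 CPM in Tnc-/-. Wild-type library 1 was the second highest of all 7, and edgeR put the log2 fold change at 0.25 ± 0.29 (SE; adjusted p = 0.541).

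Ldb3 (ENSMUSG00000021798, chromosome 14) encodes the PDZ and LIM protein that binds alpha-actinin at the Z-disc, also called ZASP or Cypher. It was at 648, 545 and 492 CPM in wild type and 713, 1065, 784 and 728 CPM in Tnc-/-. No library overlapped, but the edgeR log2 fold change of 0.55 ± 0.20 (SE) was not called (adjusted p = 0.0686). Ldb3 was called in 2 of 22 alternatives, DESeq2 (adjusted p = 0.0141) and edgeR without wild-type library 1 (0.0040). It was not called by limma voom (0.0989), or by edgeR with the receptor-gene covariate (adjusted p = 0.695) or against wild-type library 1 alone (0.454).

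Des (ENSMUSG00000026208, chromosome 1), the desmin gene, was at 1887, 1288 and 1148 CPM in wild type and 1632, 2331, 1635 and 2078 CPM in Tnc-/-. Wild-type library 1 lay inside the Tnc-/- range, and the difference in edgeR was 0.41 ± 0.24 on the log2 scale (SE; adjusted p = 0.220).

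Mybpc2 (ENSMUSG00000038670, chromosome 7), which encodes the myosin binding protein C of fast fibres, had the largest difference of the 9. It was at 680, 513 and 504 CPM in wild type and 786, 1249, 1024 and 932 CPM in Tnc-/-. All 4 Tnc-/- libraries were above all 3 wild-type libraries, and edgeR put the difference at 0.82 ± 0.21 on the log2 scale (SE), or 1.76-fold higher (adjusted p = 0.0215).

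In GENCODE M21, other annotated genes overlap 5.86% of the exon bases of Des (Gm15179) and 5.32% of those of Mybpc2 (Gm44646), so reads there could be assigned to either gene or to neither. For Ttn and Neb such overlap came to 0.388 and 0.169% of exon bases, and for Acta1, Actn2, Actn3 and Ldb3 there was none.

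With 1 library left out, the log2 fold change was 0.61 to 0.98 for Actn3 and 0.69 to 1.07 for Mybpc2. Leaving out wild-type library 2 or 3, or any Tnc-/- library, took the edgeR adjusted p of Actn3 to between 0.0550 and 0.119. For Mybpc2 the edgeR call ended when wild-type 2, wild-type 3, Tnc-/- 2 or Tnc-/- 3 was left out, with a highest adjusted p of 0.0890. Without wild-type library 1, 6 of the 8 genes were called higher, namely Ttn, Actn2, Actn3, Ldb3, Des and Mybpc2; of all 21989 genes tested in that fit 64.2% were called, and 24.3% were called higher. Against wild-type library 1 alone, the log2 fold change was 0.42 for Actn3 (edgeR adjusted p = 0.377) and 0.55 for Mybpc2 (0.241), with the lone library assumed to vary like the Tnc-/- libraries. With the receptor-gene level as a covariate, edgeR called 2.23% of all genes and 0 of the 8 (0 at an unadjusted p under 0.05). The log2 fold change was then 0.29 for Actn3 (edgeR adjusted p = 0.678) and 0.43 for Mybpc2 (edgeR adjusted p = 0.511). The values of Ttn, Neb, Actn2, Acta1 and Des were below 0. The SE was 0.32 for both Actn3 and Mybpc2, against 0.21 without the covariate. Since this level separates the genotypes completely, a call lost in this fit cannot be assigned to background or to genotype.

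**Figure D2:**
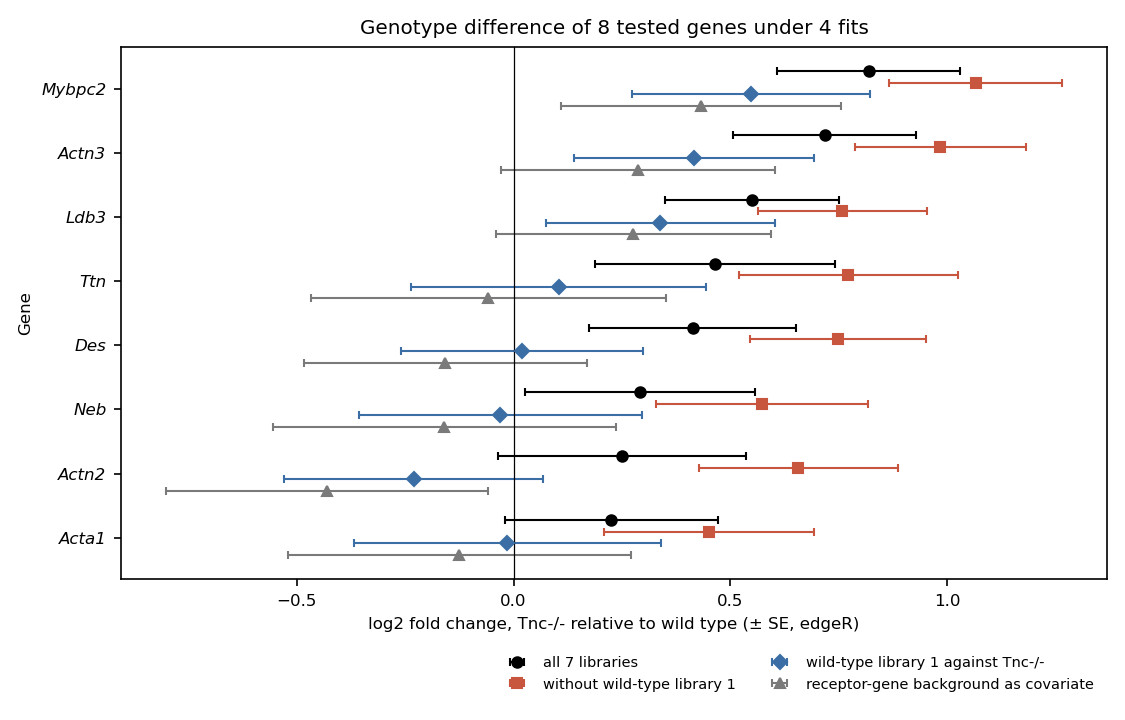
Log2 fold change of Tnc-/- relative to wild type (horizontal axis, ± SE from edgeR) for the 8 tested genes (vertical axis) under 4 fits, marked by colour and shape. Mybpc2, Actn3 and Ldb3 lie above 0 in all 4 fits, whereas Acta1, Actn2 and Neb lie below 0 against wild-type library 1 alone and with the receptor-gene covariate.

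Levels of different genes were compared per kb of exon. In wild type the order was Acta1 at 6775 ± 1095 CPM per kb, Actn3 at 428 ± 85.1, Des at 384 ± 105, Mybpc2 at 157 ± 27.5, Actn2 at 156 ± 54.0, Ldb3 at 92.0 ± 13.0, Neb at 42.1 ± 9.34 and Ttn at 19.1 ± 4.97 (SD, n = 3). In Tnc-/- the order was the same, from 7921 ± 1712 CPM per kb for Acta1 to 26.3 ± 7.54 for Ttn (SD, n = 4). Neighbours whose mean ± SD ranges overlapped, in both genotypes, were Actn3 and Des, Mybpc2 and Actn2, and Actn2 and Ldb3. The exon lengths join all annotated isoforms, so genes with many alternative exons, such as Ttn, read lower per kb than a single transcript would.

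Ratios within a library do not depend on the scaling, and 4 were compared by exact two-sided permutation over the 35 splits, where the smallest possible p is 0.0571. The count ratio of Actn2 to Actn3 was 0.541, 0.482 and 0.387 in wild type and 0.318, 0.402, 0.262 and 0.393 in Tnc-/-. The groups overlapped, and the difference of -0.46 on the log2 scale had an exact p of 0.171 (0.229 adjusted over the 4 ratios). The count ratio of Des to Acta1 was 0.154, 0.144 and 0.115 in wild type and 0.163, 0.146, 0.144 and 0.184 in Tnc-/-. This ratio overlapped too, with a log2 difference of 0.21 (exact p = 0.229, 0.229 adjusted).

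The count ratio of Ttn to Neb was 2.04, 1.86 and 2.03 in wild type and 2.25, 2.16, 2.40 and 2.19 in Tnc-/-. All 4 Tnc-/- libraries lay above wild type, and the difference was 0.19 on the log2 scale, or 1.14-fold (exact p = 0.0571, the smallest possible; 0.114 adjusted). Mybpc1 encodes the slow-fibre myosin binding protein C and had an edgeR log2 fold change of 0.39 ± 0.27 (SE; adjusted p = 0.316). The count ratio of Mybpc2 to Mybpc1 was 0.450, 0.597 and 0.518 in wild type and 0.655, 0.608, 0.778 and 0.741 in Tnc-/-. It was higher in all 4 Tnc-/- libraries, though Tnc-/- 2 and wild-type library 2 nearly met, and the log2 difference was 0.42 (exact p = 0.0571, the smallest possible; 0.114 adjusted). Neither ratio passed the adjustment. No ratio could pass it in this exact permutation test, since its smallest possible p with these group sizes is 0.0571. Wild-type library 1 had the highest Actn2 to Actn3 ratio and the lowest Mybpc2 to Mybpc1 ratio of the 7 libraries.

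**Figure D3:**
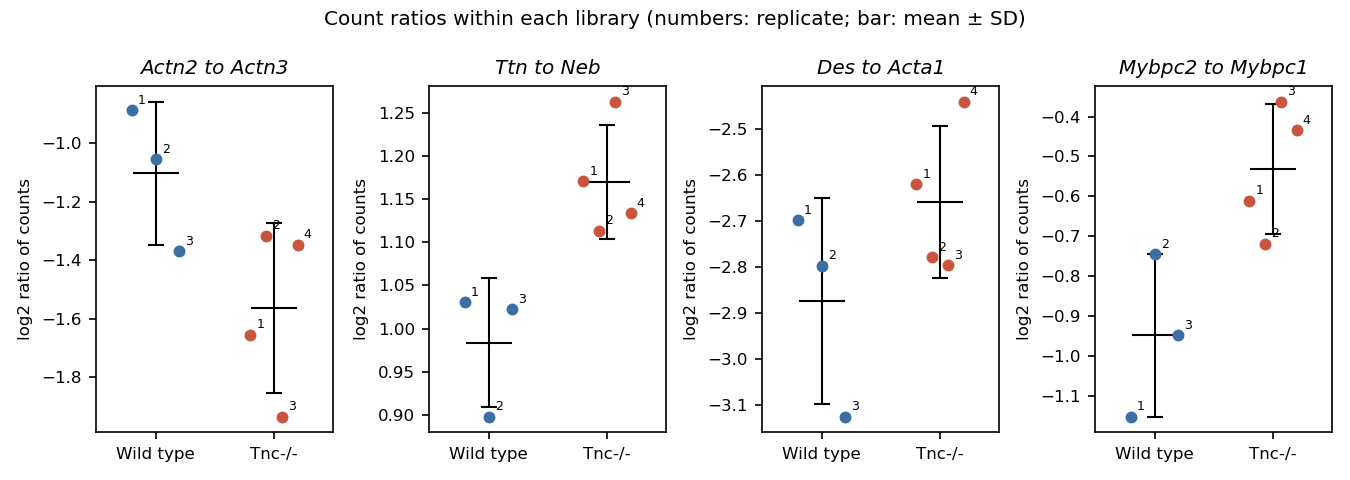
Log2 ratio of counts within each library (vertical axes, separate scales that do not start at 0) for 4 gene pairs in wild type (blue, n = 3) and Tnc-/- (red, n = 4), with replicates numbered and bars giving mean ± SD. The groups are separate for Ttn to Neb and Mybpc2 to Mybpc1 and overlap for Actn2 to Actn3 and Des to Acta1.

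The 8 genes varied together from library to library. In log2 CPM centred on each gene's mean over the 7 libraries, the median of the 8 was 0.13, -0.40 and -0.51 in wild-type libraries 1 to 3. In Tnc-/- libraries 1 to 4 it was -0.0033, 0.64, 0.099 and 0.10. Wild-type library 1 was the highest wild-type library and Tnc-/- 2 the highest of all 7 for each of the 8 genes. The mean of wild-type libraries 2 and 3 was between 0.578 (Actn2) and 0.800 (Ldb3) times the level in wild-type library 1. Ldb3 followed the median most closely, with a root mean square difference of 0.094, and Mybpc2 least, at 0.20.

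Among 8222 other genes that averaged 20 CPM or more, the closest to the median profile were Ndufa10 (root mean square difference 0.057), Tpm1 (0.063), Myom1 (0.075), Coq10a (0.083) and Tmem38a (0.085). The median over the 8222 was 0.352. All 7 points share library and depth with the members, so this likeness is a description.

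**Figure D4:**
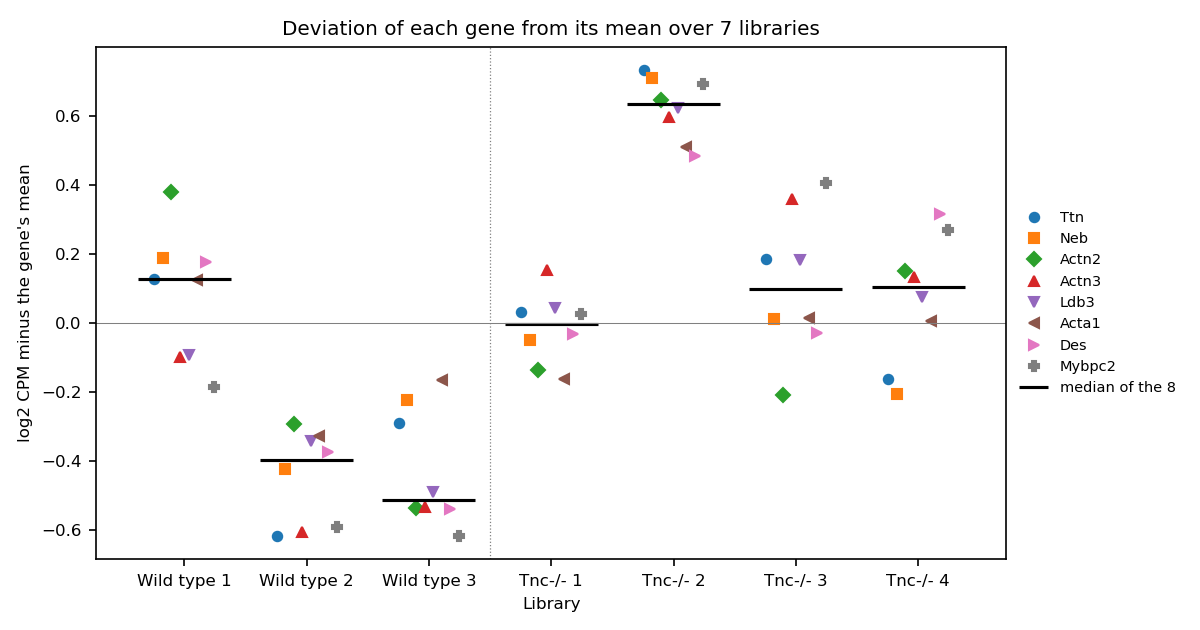
Log2 CPM of each of the 8 genes with counts minus that gene's mean over 7 libraries (vertical axis) in each library (horizontal axis), with the black line giving the median of the 8. The median is lowest in wild-type libraries 2 and 3 and highest in Tnc-/- 2.

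Partner genes were taken from lists drawn up by function. Among 22 Z-disc partners, 20 were tested, 5 were called higher and 1 lower, with a median log2 fold change of 0.33. In either direction that is close to the 29.0% of all genes called, of which 10.3% of all genes were higher and 18.7% lower. Without wild-type library 1, where 64.2% of all genes were called, 17 of the 20 were. Flnc, which encodes filamin C, a crosslinker at the Z-disc and membrane, had 382, 217 and 217 CPM in wild type and 494, 590.4, 481 and 620 CPM in Tnc-/-, an edgeR log2 difference of 1.01 ± 0.24 (SE; adjusted p = 0.0159). Pdlim7, a PDZ and LIM protein of the same family as Ldb3, differed by 0.81 ± 0.18 on the log2 scale (SE; edgeR adjusted p = 0.0135). With the receptor-gene covariate neither was called, at 0.25 for Flnc (edgeR adjusted p = 0.645) and 0.40 for Pdlim7 (0.460). The edgeR call of Flnc also ended without wild-type library 2 or 3 (adjusted p = 0.0598 and 0.0727), and that of Pdlim7 without wild-type library 3 (0.0570). With the replicate block, which groups libraries that share only a number, the edgeR adjusted p was 0.0516 for Flnc and 0.0671 for Pdlim7. The others called higher, named after their values were seen, were Tcap, the titin cap, at 0.81, Ankrd2 at 0.70 and Synpo2l at 0.62.

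The Z-disc partner called lower was Nebl, which encodes the nebulin relative nebulette and spans 388 kb. It was at 3.86, 52.6 and 44.2 CPM in wild type and 1.78 to 4.18 CPM in Tnc-/-, so wild-type library 1 lay within the Tnc-/- range. The edgeR log2 fold change of Nebl was -3.52 ± 0.75 (SE; adjusted p = 0.0121) and turned to 0.68 with the receptor-gene covariate. With that covariate edgeR called 0 Z-disc partners (1 at an unadjusted p under 0.05), and against wild-type library 1 alone it called 0 (3 at an unadjusted p under 0.05); DESeq2 on all libraries called 8 and limma voom 2.

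Of 13 genes of thin filament assembly and length control, all were tested and 0 were called by edgeR, with 2 at an unadjusted p under 0.05, 2 called by DESeq2 and 0 by limma voom. Over all genes edgeR called 29.0%. Without wild-type library 1, edgeR called 10 of the 13, against 64.2% of all genes. The median log2 fold change of the 13 over all 7 libraries was 0.29. The 3 with the smallest p were Tpm3 (0.54, edgeR adjusted p = 0.0711) and Tpm1 (0.51, 0.134), both tropomyosins, and Tmod1 (0.47, 0.0890), the cap of the thin filament's pointed end.

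Of 12 thick filament and M-band genes, 2 were called higher and none lower, with a median of 0.46; over all genes 10.3% were called higher. Against 64.2% of all genes, 9 of the 12 were called without wild-type library 1. Among them Obsl1, a cytoskeletal adaptor, was at 62.1, 52.6 and 45.1 CPM in wild type and 71.8, 89.9, 88.8 and 119 CPM in Tnc-/-. Every Tnc-/- library was above wild type, and the difference was 0.79 ± 0.19 (log2, SE; edgeR adjusted p = 0.0172). The Obsl1 call held in 14 of 22 alternatives. In edgeR it ended with the receptor-gene covariate (0.44, adjusted p = 0.474), against wild-type library 1 alone (0.57, 0.170), without wild-type library 2 (0.79, 0.0547) or 3 (0.69, 0.0780) and with the replicate block (0.65, 0.0691). It also ended with limma voom (adjusted p = 0.0551) and with both Bonferroni adjustments. The myosin chaperone Unc45b, at 0.45, did not pass (edgeR adjusted p = 0.0585).

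Of 11 genes of the desmin network and costamere, 10 were tested, 1 was called higher and 2 lower, with a median of -0.21. Over all genes 29.0% were called. Without wild-type library 1, 7 of the 10 were called, against 64.2% of all genes. Plec encodes plectin, which links desmin to Z-discs and membrane. It was at 530, 288 and 327 CPM in wild type and 1023, 1189, 1350 and 1346 CPM in Tnc-/-, which is 1.68 ± 0.25 on the log2 scale (SE; edgeR adjusted p = 0.0067). The call held in 20 of 22 alternatives, among them wild-type library 1 alone (1.21, edgeR adjusted p = 0.0305), and ended with the receptor-gene covariate (0.93, edgeR adjusted p = 0.109). Dmd, the dystrophin gene, which spans 2257 kb, was at 81.8, 154 and 131 CPM in wild type and 52.4 to 84.2 CPM in Tnc-/- (log2 fold change -0.94, edgeR adjusted p = 0.0200). Ank3, an ankyrin spanning 629 kb, was at 55.1, 236 and 168 CPM in wild type and 44.5 to 74.7 CPM in Tnc-/- (-1.49, edgeR adjusted p = 0.0302). In both of these long genes wild-type library 1 lay within the Tnc-/- range. Against that library alone the log2 fold change was -0.37 for Dmd (edgeR adjusted p = 0.332) and -0.025 for Ank3 (0.962). With the receptor-gene covariate it was -0.088 for Dmd (edgeR adjusted p = 0.905) and 0.61 for Ank3 (0.321), and without wild-type library 2 or 3 neither gene was called (edgeR adjusted p from 0.0740 to 0.108).

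**Figure D5:**
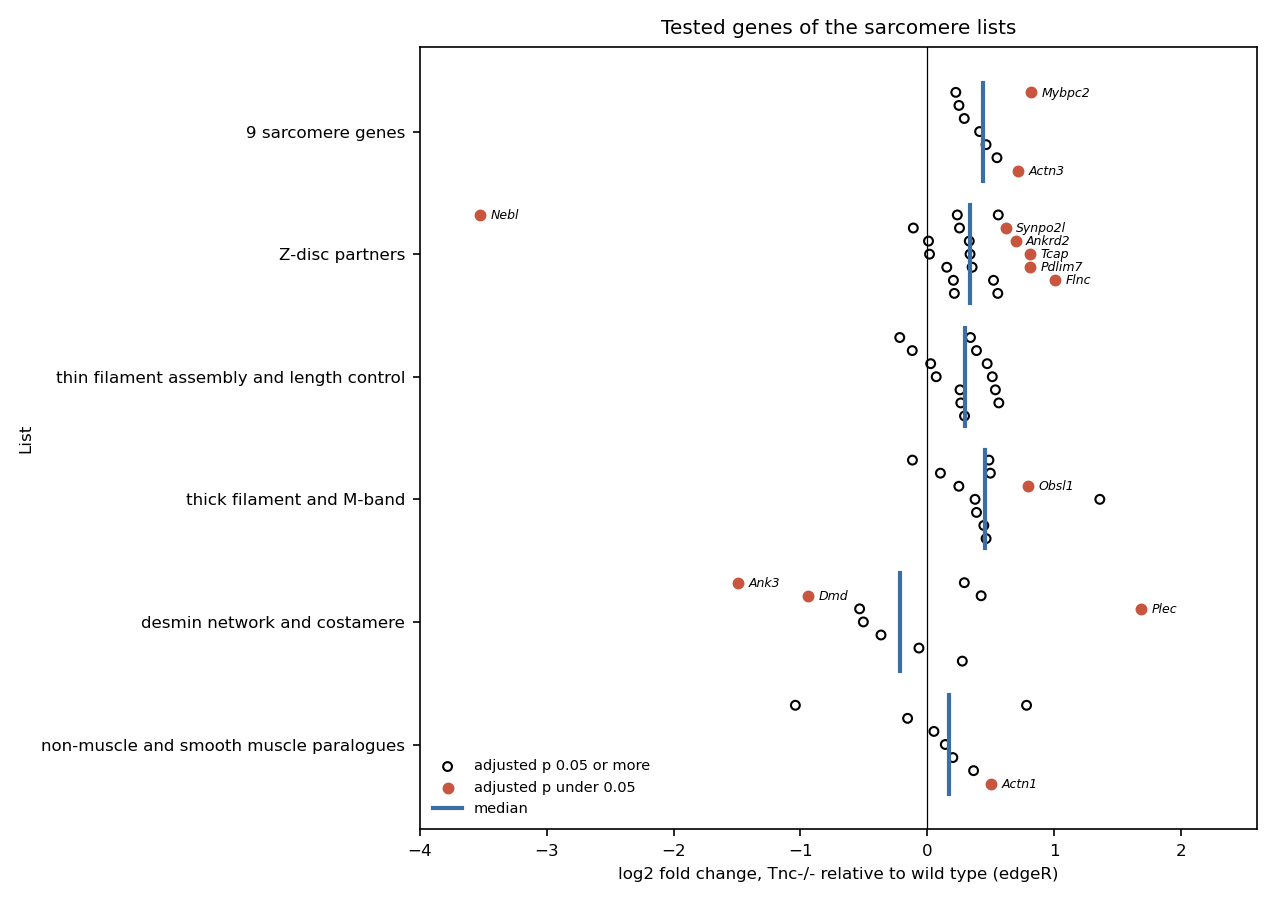
Log2 fold change of Tnc-/- relative to wild type (horizontal axis) for the tested genes, all but 1, of the 9 sarcomere genes and 5 related lists (vertical axis), filled red where the edgeR adjusted p was under 0.05, with the blue line giving each list's median over all its tested genes. Among the genes drawn, Plec (1.68) lies furthest to the right and Nebl (-3.52) furthest to the left; vertical offsets within a list only separate the points.

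The non-muscle and smooth muscle relatives of the members gave 1 call among 8 genes, with a median of 0.17, where 29.0% of all genes were called. Without wild-type library 1 they gave 6 calls, where 64.2% of all genes were called. Actn1, a non-muscle alpha-actinin, was at 146, 129 and 134 CPM in wild type and 190, 167, 194 and 223 CPM in Tnc-/- (0.50 ± 0.14 on the log2 scale, SE; edgeR adjusted p = 0.0279). Actn1 was called in 9 of 22 alternatives and in 2 of the 7 fits that left out 1 library. The covariate gave 0.33 (edgeR adjusted p = 0.500) and wild-type library 1 alone 0.40 (0.231), both without a call. The other non-muscle alpha-actinin, Actn4, had 0.37 (edgeR adjusted p = 0.105). The cytoplasmic actins Actb and Actg1 had 0.14 and 0.20, and the smooth muscle actins Acta2 and Actg2 had 0.053 and -1.04 (edgeR adjusted p from 0.158 to 0.870). The intermediate filament genes Vim and Nes had -0.15 and 0.78 (edgeR adjusted p = 0.614 and 0.0691). Acta1 shares a run of 77 identical bases with Actb, so reads of up to that length there match both genes.

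Markers of other cell types were read beside these results. For the counts of called markers here and below, 10.3% of all genes were called higher and 18.7% lower. Without wild-type library 1, 64.2% of all genes were called. The 10 erythroid and marrow myeloid markers summed to 6293 to 12561 CPM in wild type and 17561 to 31919 CPM in Tnc-/-, with 5 of 9 tested called higher (Hba-a1, Hbb-bs, Slc4a1, S100a9 and Ltf) and Alas2 at 0. For these markers DESeq2 called 7 and limma voom 2, and edgeR without wild-type library 1 called all 9. With the receptor-gene covariate edgeR called 0, with 0 at an unadjusted p under 0.05, and against wild-type library 1 alone it called 0, with 1 at an unadjusted p under 0.05. The single markers in parentheses, here and below, are named after their values were seen. The part of marrow in the differences of Actn3 and Mybpc2 was not tested. The 8 markers of regenerating fibres and myoblasts summed to 219 to 304 CPM in wild type and 136 to 350 CPM in Tnc-/-, overlapping, with 1 called lower (Ncam1). Of 8 cardiomyocyte markers, which bear on Actc1, Nppa, Nppb and Myl7 were at 0 in all 7 libraries, as were the sarcomere partners Xirp1 and Synm. As for Actc1, whether their reads were set aside as ambiguous was not tested. The other cardiomyocyte markers had counts: Tnnt2 was at 11.0 to 38.1 CPM over the 7 libraries. Tnni3 was at 1.21 to 1.66 CPM in wild type and 2.86 to 3.19 CPM in Tnc-/- (edgeR adjusted p = 0.104). The sum of the 8 was 34.1 to 139 CPM in wild type and 17.7 to 44.0 CPM in Tnc-/-, with 2 called lower (Myh6 and Ryr2); Ryr2 had 4.29 CPM in wild-type library 1 but 100.3 and 86.1 CPM in the other two. The members themselves summed to 15504 to 22058 CPM in wild type and 19401 to 30452 CPM in Tnc-/-.

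The remaining marker sums overlapped between the groups. Smooth muscle markers summed to 305 to 388 CPM in wild type and 347 to 512 in Tnc-/-, with 1 of 7 called higher (Smtn). Tendon fibroblast markers summed to 21815 to 36087 and 25031 to 44375 CPM, with 1 of 7 tested called lower (Mkx) and Scx at 0. Bone and cartilage markers summed to 1248 to 2210 and 1299 to 2969 CPM, with 1 of 8 called higher (Bglap). Macrophage markers summed to 1692 to 3275 and 2648 to 3065 CPM, with 0 of 7 called by edgeR, 0 at an unadjusted p under 0.05 and 0 by DESeq2 or limma voom (1 at an unadjusted p under 0.05 in each); without wild-type library 1, edgeR called 5 of the 7. Adipocyte markers summed to 339 to 486 and 400.4 to 704 CPM, with 1 of 6 called higher (Adipoq). The calls of Smtn, Mkx, Bglap and Adipoq all ended with the receptor-gene covariate and against wild-type library 1 alone, and those of Mkx, Bglap and Adipoq with limma voom. Ncam1 lost its call in the same 3 fits, Myh6 did too, and Ryr2 stayed called against wild-type library 1 alone but not in the other two.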

How the data were processed

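RNA was sequenced from whole shoulder joints of 7 mice; libraries were poly(A)-selected and made with a NEBNext Ultra kit, per the labels. Each library has 1 deposited table of raw counts, giving reads for every gene. The submitters' processing notes name FastQC 0.11.9, HISAT2 2.2.1, HTSeq 2.0.2, DESeq2 1.38.3 and the builds GRCm39 and mm39, with no role or order. The annotation release is not given in the sources used here. Files of the wild type listed 56980 identifiers and those of Tnc-/- 56941, with 56854 in common; 126 and 87 were in one form only. Rows naming no gene held 30.1 to 32.7% of listed reads in Tnc-/- and were left out; the wild-type files have no such rows.

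The 9 genes were found by symbol in the Tnc-/- files and by the same identifiers in the wild-type files. The genotypes were compared in edgeR 4.0.16 (R 4.3.3; filterByExpr, TMM, robust quasi-likelihood, genotype as the 1 term), with Benjamini-Hochberg adjustment over 17791 genes and a threshold of 0.05. Of these, 5159 (29.0%) were called, 7533 at an unadjusted p under 0.05. A fold change above 1 means higher in Tnc-/-; its SE on the log2 scale was obtained from the F statistic. Groups are called apart when no library of one lies within the range of the other, which 35.1% of genes met. Spans, exon lengths and overlaps came from GENCODE M21 (GRCm38), which holds 91.4% of the common identifiers. Since the builds differ, no coordinates are given other than those of the promoter windows on GRCm38.p6. Motifs were searched in RefSeq promoters on both strands, and coding sequences were compared with Biopython 1.88.

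All 9 members, the 3 genes of smallest p in each of the 4 partner lists, the relatives, Mybpc1 and the 5 genes of most similar profile are named by rule. Of the genes this rule names, 1 is not reported here. The members and lists were chosen with earlier results of these data known. The 22 alternatives covered DESeq2 1.42.0, limma 3.58.1, Bonferroni adjustment, other scalings and filters, thinning, receptor-gene background as covariate or subtracted by exon length, each library left out, wild-type library 1 alone, and a replicate block.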

Additional observations from a re-analysis of the deposited data

Results flagged for a closer look

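Among 37 sets of 4 Tnc-/- values examined for a sample far from the others, 1 stood out: Mybpc1 was at 2055 CPM in Tnc-/- 2, with the next library at 1316 CPM and a gap of 0.865 of the range, past Dixon's 95% critical value for 4 samples. About 1 set in 20 does so by chance. In the same library all 8 tested members were at their highest.

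The tables of Tnc-/- list a row of ambiguous reads that no comparison uses. It held 11.5136, 11.5769, 11.4258 and 11.5745% of the listed reads in Tnc-/- 1 to 4. Files of the wild type have no such row, so the share could not be set beside a control.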

How the results depend on the processing

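Mybpc2, Actn3 and Ldb3 kept their direction in all 22 alternatives; Mybpc2 was called in 13, Actn3 in 8 and Ldb3 in 2. Of all genes 5159 were called. DESeq2 called 9423, DESeq2 with Bonferroni 1890, edgeR with Bonferroni 22, limma voom 1004 (728 higher, 276 lower), the receptor-gene covariate 397, and wild-type library 1 alone 825. Leaving out 1 library gave 2229 (without wild-type 3) to 14113 (without wild-type 1). Library totals moved the median of all genes to -0.24 and split the calls into 951 higher and 4541 lower, against 1830 and 3329. Without the filter on low counts 7648 were called, and with at least 10 counts in every library 3453.

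Of the members 2 were called. The count was 3 with DESeq2 (Actn3, Ldb3 and Mybpc2), 1 with limma voom, library totals or upper quartile scaling, and 0 with either Bonferroni adjustment, the covariate or wild-type library 1 alone. Leaving out 1 library gave 0 to 6: 6 without wild-type 1, 1 without Tnc-/- 1 or 4, and 0 without any of the others.

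With the covariate these log2 fold changes reversed: Ttn -0.058, Neb -0.16, Actn2 -0.43, Acta1 -0.12, Des -0.16, Nebl 0.68, Tpm3 -0.061, Ank3 0.61, Actb -0.54, Actg1 -0.37, Acta2 -0.38, Actg2 0.16, Nes -0.095, Mybpc1 -0.26, Ndufa10 -0.19, Myom1 -0.16 and Tmem38a -0.028. Against wild-type library 1 alone they were Neb -0.030, Actn2 -0.23, Acta1 -0.014, Actb -0.31, Actg1 -0.15, Acta2 -0.20, Mybpc1 -0.056, Ndufa10 -0.025 and Myom1 -0.0067. With library totals Acta1 was -0.012, Actb -0.078, Actg1 -0.027 and Acta2 -0.19. Acta2 was -0.013 with upper quartile scaling and -0.024 with at least 10 counts. Leaving out 1 library gave -0.14 to 0.29 for Acta2 and -0.28 to 0.080 for Vim. The causes were not tested, and the covariate cannot be separated from genotype.

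Same-numbered libraries of the genotypes did not deviate together (r = -0.029, 0.073 and -0.014), so they share only a number. With the replicate block 1932 genes and 0 members were called, Acta2 was -0.13, and the log2 ratio differences were -0.53 (Actn2 to Actn3), 0.20 (Ttn to Neb), 0.14 (Des to Acta1) and 0.38 (Mybpc2 to Mybpc1). The 4 ratios kept their direction in all alternatives run. Subtracting the receptor background by exon length left 2 members called. That subtraction was at most 1.58% of the level of any tested member in any library, so it could hardly move a call. The planned ratio of Actc1 to Acta1 gave no value. Why Actc1 was at 0 was not tested.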
